A study of Mus musculus with 12 samples.

Results

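The Rhox genes are the reproductive homeobox genes of the mouse X chromosome, and the 5 described here are Rhox1, Rhox5, Rhox6, Rhox9 and Rhox13. They were taken by symbol from the 52535 gene entries of each deposited count file, as members of the family that could have reads in stem cells. The counts came from RNA sequencing of 6 libraries of E14, an established line of mouse embryonic stem cells. All 6 came from cells grown in medium with fetal bovine serum, non-essential amino acids, antibiotics, L-glutamine, β-mercaptoethanol, the cytokine LIF and the kinase inhibitors called 2i. Of these, 2 libraries were labelled wild type (WT), 2 were labelled clone 1 and 2 were labelled clone 2 of a knockout of Bcat1, which encodes the cytosolic branched-chain amino acid transaminase. Each knockout arm is a single clone, and no label says whether replicate libraries were grown as separate cultures. The p-values below for single clones therefore reflect library-to-library spread only, which may be technical. With both clones taken as 1 genotype, the difference between the clones also enters the spread.

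Rhox genes encode homeodomain transcription factors that lie side by side on the X chromosome. They are known for expression in the testis, epididymis, ovary and placenta, where several act in germ cells or in the somatic cells that nurse them. In tissues of the embryo proper they are mostly silent, and DNA methylation of their promoters is known to take part in that silence. Rhox5, first described as Pem, is the founding member and is expressed in Sertoli cells and placenta. Rhox6 and Rhox9 are known from placenta and germ cells, Rhox1 from the testis, and Rhox13 from male germ cells.

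Gene counts per library ranged from 11976149 to 13923262, so 1 read was worth 0.0738 to 0.0843 CPM (reads scaled to a common library size with TMM factors). Replicates differed beyond sampling noise in each group, most in clone 1 (chi-square per gene 8.79, against 3.57 for WT and 3.27 for clone 2). Between 20365 and 21878 gene entries had a read in each library, with the highest numbers in both clone 1 libraries. Bcat1 RNA stood at 579 to 661 CPM in all 6 libraries and so does not check the knockout label. The 4 libraries are therefore called libraries labelled knockout. All 8 embryonic stem cell markers listed, among them Pou5f1 and Nanog, were measured, and their summed level was 6145 to 6296 CPM in WT, 5509 to 5661 in clone 1 and 5665 to 5689 in clone 2. The edgeR test described below called 0 of them with both clones as 1 genotype (2 lower at an unadjusted p under 0.05, and 1 in DESeq2). It called 3 lower in clone 1 (Sox2, Klf4 and Dppa5a) and 2 lower in clone 2 (Sox2 and Tdgf1). In neither clone was any of the 8 called higher.

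The promoters of Rhox1 and Rhox13 are shown because these 2 genes carried most Rhox reads, and those of Rhox2a and Rhox10 because they were the remaining family members with 10 or more reads. Each is a 300-base window from RefSeq on GRCm38.p6, with 250 bases before and 50 after the RefSeq start, printed 5′ to 3′ on the gene's strand. Capitals mark CG dinucleotides, the usual sites of DNA methylation in mammalian cells.
Rhox1, chrX:37222209-37222508, minus strand: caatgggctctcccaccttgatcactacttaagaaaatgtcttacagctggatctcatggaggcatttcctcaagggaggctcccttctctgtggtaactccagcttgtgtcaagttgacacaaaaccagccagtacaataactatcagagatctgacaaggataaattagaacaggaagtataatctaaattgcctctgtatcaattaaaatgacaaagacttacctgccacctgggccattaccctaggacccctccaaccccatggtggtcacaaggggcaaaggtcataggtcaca
Rhox13, chrX:38120590-38120889, plus strand: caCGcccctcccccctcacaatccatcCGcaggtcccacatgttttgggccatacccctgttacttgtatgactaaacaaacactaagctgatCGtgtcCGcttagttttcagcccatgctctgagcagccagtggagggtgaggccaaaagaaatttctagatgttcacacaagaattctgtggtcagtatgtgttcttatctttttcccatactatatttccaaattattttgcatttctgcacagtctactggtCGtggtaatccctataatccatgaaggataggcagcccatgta
Rhox2a, chrX:37244742-37245041, plus strand: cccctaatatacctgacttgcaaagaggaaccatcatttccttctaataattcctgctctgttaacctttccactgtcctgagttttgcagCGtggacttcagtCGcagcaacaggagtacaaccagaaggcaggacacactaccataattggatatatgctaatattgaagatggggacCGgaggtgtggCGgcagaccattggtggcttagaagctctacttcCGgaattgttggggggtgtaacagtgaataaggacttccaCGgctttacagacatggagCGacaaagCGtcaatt
Rhox10, chrX:38066225-38066524, plus strand: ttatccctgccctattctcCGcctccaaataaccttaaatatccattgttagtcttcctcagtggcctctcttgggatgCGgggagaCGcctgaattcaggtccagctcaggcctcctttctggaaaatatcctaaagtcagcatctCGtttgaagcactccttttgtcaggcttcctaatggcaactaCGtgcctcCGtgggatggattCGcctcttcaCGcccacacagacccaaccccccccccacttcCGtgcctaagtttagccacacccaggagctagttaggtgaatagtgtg

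The Rhox1 window held 0 CG dinucleotides, and 94.6% of the 32851 windows in the table held more. The Rhox13 window held 5, the Rhox2a window 8 and the Rhox10 window 9, where the median over all windows was 7. The RefSeq start of Rhox13 lies 379 bases before the start in the GENCODE M21 annotation, so its window may not match the start used in these cells. Windows were found for 3 of the 5 genes, Rhox1, Rhox5 and Rhox13, and not for Rhox6 and Rhox9. The RefSeq start of Rhox5 lies 50234 bases from its GENCODE start, and its window is not shown.

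Both strands of each window were searched for CCGGAA (the core of ETS factor sites), GGGCGG (Sp1), GCGGGAA (E2F) and CACGTG (the E-box), and matches of different motifs overlapped in 0 of the 28 Rhox windows. None of these motifs occurred in the windows of Rhox1, Rhox13 and Rhox10. CCGGAA occurred in the Rhox2a window, in 8 of the 28 Rhox windows and in 14.9% of all windows. Apart from Rhox5, the Rhox windows with CCGGAA were all those of Rhox2 copies. GGGCGG occurred in 8 of the 28 Rhox windows, against 35.7% of all windows. Apart from Rhox12, the Rhox windows with GGGCGG were all those of Rhox4 copies. CACGTG occurred in 5 Rhox windows, all of Rhox4 copies, and in 7.15% of all windows. GCGGGAA occurred in 1 Rhox window and 4.60% of all windows. Copies of Rhox2 and of Rhox4 are near-identical, so their windows are not separate cases to set against the shares over all windows. A match describes the letters and is not evidence of a bound site.

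Of the 5 genes, only Rhox1 and Rhox13 had more than 2 reads in all, and nearly all of those reads were in the libraries labelled knockout. Against WT, reads scaled by library size were 16.9 times as high for Rhox1 in the libraries labelled knockout (exact 95% counting interval 4.49 to 143) and 25.1 times for Rhox13 (6.76 to 210), from levels near 0. Rhox5, Rhox6 and Rhox9 were at or near 0 in every library. Reads in these stem cells were thus found for 4 of the 5 genes, and 10 or more of them for only 2.

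Rhox1 (ENSMUSG00000071773.4, chrX:37213804-37222258, minus strand, GRCm38) is the first gene of the cluster. It had 0 and 2 reads in the WT libraries, 10 and 20 in those of clone 1, and 19 and 15 in those of clone 2. All 4 libraries labelled knockout lay above both WT libraries, while the ranges of the clones overlapped. WT averaged 0.0738 ± 0.104 CPM (SD, n = 2), clone 1 averaged 1.16 ± 0.523 and clone 2 averaged 1.39 ± 0.295.

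Rhox13 (ENSMUSG00000050197.5, chrX:38121219-38129967, plus strand, GRCm38) lies near the other end of the cluster, at place 41 of 42. It had 2 and 0 reads in the WT libraries, 17 and 20 in those of clone 1, and 25 and 33 in those of clone 2. Again all 4 libraries labelled knockout lay above both WT libraries, and here both clone 2 libraries also lay above both of clone 1. WT averaged 0.0770 ± 0.109 CPM (SD, n = 2), clone 1 reached 1.44 ± 0.131 and clone 2 reached 2.36 ± 0.352.

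**Figure D1:**
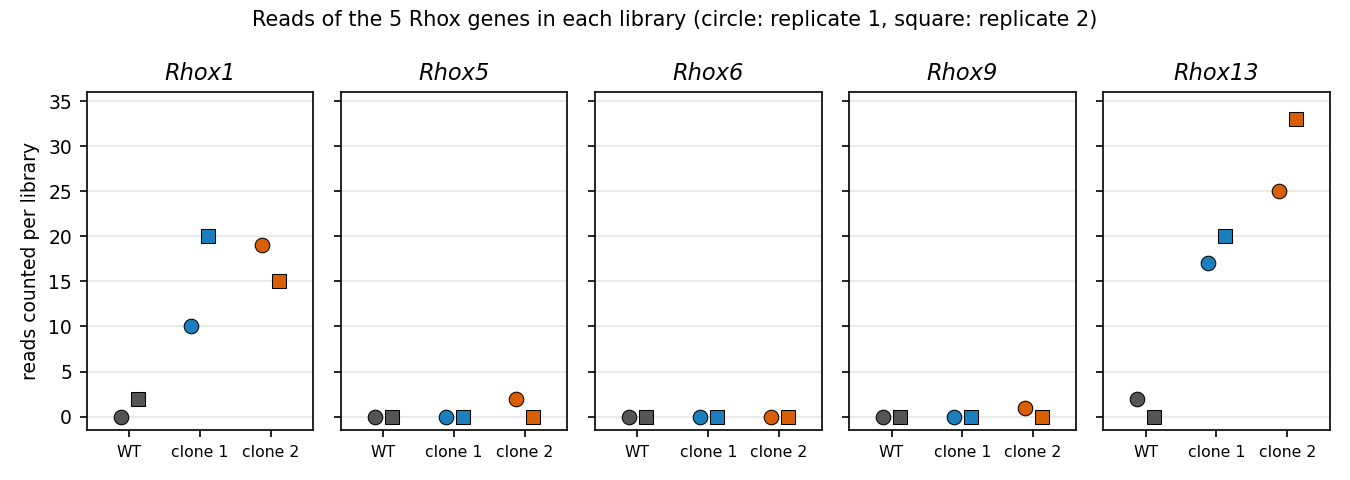
Reads counted for each of the 5 Rhox genes (vertical axis) in each library of WT, clone 1 and clone 2, with circles for replicate 1 and squares for replicate 2. Rhox1 reaches 20 reads and Rhox13 33 reads in libraries labelled knockout and 2 at most in WT, while no library has more than 2 reads of Rhox5, Rhox6 or Rhox9.

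Rhox5 (chrX:37804842-37808876) had 2 reads, both in replicate 1 of clone 2, and 0 in the other 5 libraries. Rhox9 (chrX:37899097-37901770) had 1 read, in the same library. Rhox6 (chrX:37826910-37829857) had 0 reads in all 6 libraries, which allows a level of up to 0.0391 CPM over all of them (3 reads). At this depth no difference in these 3 genes was detectable. In the WT libraries together, 0 reads allow up to 0.113 CPM, and in those of clone 1 up to 0.117 CPM. Intervals and floors cover counting error only.

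The test was edgeR's quasi-likelihood F test on the counts, two-sided, with Benjamini-Hochberg adjustment over the 14946 genes that passed a filter on low counts. Rhox1 and Rhox13 passed that filter only through the libraries labelled knockout, so they could not have passed it without a difference from WT. Rhox5, Rhox6 and Rhox9 did not pass it. Both tested genes were called higher in the comparison of both clones with WT, where 4.25% of all genes tested were called higher and 2.11% lower, and their number supports nothing beyond each gene's own values.

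With both clones as 1 genotype, the log2 fold change of Rhox1 was 3.92 ± 0.84 (SE; 95% interval 2.04 to 5.80), with an adjusted p of 0.0255 in edgeR's test. The matching value of Rhox13 was 4.48 ± 0.80 (2.70 to 6.27), with an adjusted p of 0.0118. This fit treats 4 libraries from 2 clones as independent. Leaving out WT replicate 1 gave an edgeR adjusted p of 0.232 for Rhox1 and 0.0684 for Rhox13, and leaving out WT replicate 2 gave 0.107 and 0.128. The Rhox1 call was also lost without clone 1 replicate 2 (edgeR adjusted p = 0.0548) and without clone 2 replicate 1 (0.0506).

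Against WT, clone 1 showed a log2 fold change of 3.79 ± 0.89 (SE) for Rhox1, with an edgeR adjusted p of 0.00547, and 4.09 ± 0.80 for Rhox13, with an adjusted p of 0.00140. In that comparison 12.4% of genes tested were called higher and 9.53% lower. The ratio of scaled reads to WT was 15.5 for Rhox1 (exact 95% counting interval 3.93 to 134), and its interval for Rhox13 was 4.93 to 164. Each interval rests on only 2 reads in WT.

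Clone 2 showed log2 fold changes of 4.04 ± 0.87 (SE) for Rhox1 and 4.80 ± 0.74 for Rhox13, with edgeR adjusted p-values of 0.00352 and 2.28e-04. Here 10.1% of genes tested were called higher and 7.81% lower. The ratio of scaled reads to WT was 18.4 for Rhox1 (4.72 to 158) and 31.4 for Rhox13 (8.30 to 265). The clone comparisons share the same WT libraries, and both rest on the 2 reads of each gene there. Without WT replicate 1 the Rhox1 call was lost in clone 1 (edgeR adjusted p = 0.0828) and in clone 2 (0.0677).

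When the clones were compared with each other, 0 of the 2 genes passed edgeR's test, 0 had an unadjusted p under 0.05 and 0 passed in DESeq2, while 14.3% of genes tested passed in edgeR (6.62% higher and 7.71% lower in clone 2). Rhox1 differed by 0.25 ± 0.54 on the log2 scale (clone 2 against clone 1, 95% interval -0.90 to 1.40, edgeR adjusted p = 0.816). Rhox13 differed by 0.71 ± 0.46 (-0.25 to 1.67, adjusted p = 0.339). The intervals still allow a fold of either sign for both genes. Counting error alone would place the Rhox13 ratio of clone 2 to clone 1 at 1.64 (1.07 to 2.55), which leaves out the spread between libraries.

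**Figure D2:**
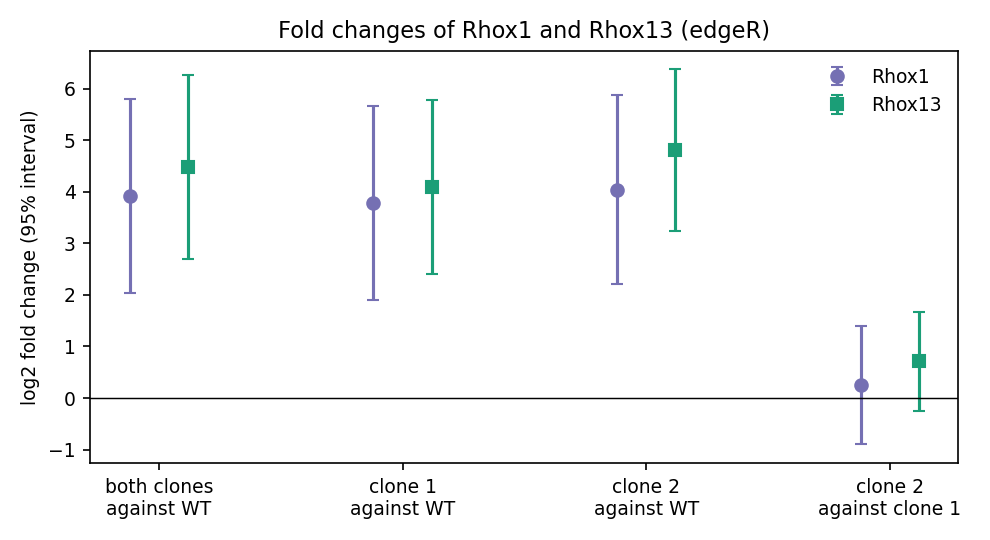
Log2 fold change from edgeR (vertical axis) of Rhox1 (circles) and Rhox13 (squares) in 4 comparisons, with bars for the 95% interval. All intervals against WT lie above 0, from 1.91 at the lowest, while both intervals of clone 2 against clone 1 include 0.

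Levels of different genes were compared per kilobase of exon, from GENCODE M21 lengths. Rhox1 stood at 1.32 ± 0.593 CPM per kb (SD, n = 2) in clone 1 and 1.58 ± 0.334 in clone 2. Rhox13 stood at 1.64 ± 0.150 CPM per kb in clone 1 and 2.69 ± 0.402 in clone 2. On this scale the ranges of the 2 genes overlapped in clone 1, where replicate 2 had 20 reads of each, and did not overlap in clone 2, where Rhox13 was higher. This was not tested. In WT they were at 0.0835 ± 0.118 and 0.0880 ± 0.124 CPM per kb, which is 1 library with 2 reads and 1 with 0 for each gene. Rhox5 was at 0.112 ± 0.158 and Rhox9 at 0.0169 ± 0.0240 CPM per kb in clone 2. In bulk libraries, a few cells with much RNA of a gene and many cells with little of it cannot be told apart.

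Across the whole family the files held 42 Rhox entries, of which 21 had a read in some library and 21 had none. Together they had 5 and 4 reads in the WT libraries, 52 and 60 in clone 1, and 69 and 73 in clone 2. Entries with a read numbered 4 in WT, 13 in clone 1 and 17 in clone 2. Scaled by library size, the family total was 12.9 times as high in clone 1 as in WT (95% counting interval 6.53 to 28.8) and 17.1 times in clone 2 (8.74 to 38.1). Without Rhox1 and Rhox13 the other 40 entries had 3 and 2 reads in the WT libraries, 25 and 20 in clone 1, and 25 and 25 in clone 2. Scaled by library size that was 9.30 times as many in clone 1 as in WT (3.70 to 30.0) and 10.8 times in clone 2 (4.34 to 34.8), so the higher total did not rest on Rhox1 and Rhox13 alone.

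Rhox2a, a gene of the tandem Rhox2 to Rhox4 array beside Rhox1, had 0 reads in both WT libraries, 8 and 6 in clone 1, and 11 and 3 in clone 2. All 4 libraries labelled knockout lay above WT. With WT set at a floor of 3 reads over the group, the level was 4.82-fold higher in clone 1 and 5.05-fold higher in clone 2. These folds leave out the counting error of the clones' own reads and are not lower bounds. Rhox2a did not pass the filter. In a fit of the 26926 genes with any read, in which 4.02% were called higher for the genotype, its edgeR adjusted p was 0.0139. The same fit gave 0.00917 for clone 1 and 0.00918 for clone 2, where 7.31% and 6.05% of genes were called higher. The copies of Rhox2, Rhox3 and Rhox4 are near-identical, so reads could be split among them or left out, and 15.6% to 16.6% of the reads in a library aligned to several places.

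The 9 Rhox2 entries together had 0 reads in both WT libraries, 13 and 14 in clone 1, and 16 and 13 in clone 2. With WT set at the same floor, the libraries labelled knockout were 9.86-fold higher, again without the counting error of their own reads. The 8 Rhox4 entries, one of which was first described as Ehox in embryonic stem cells, had 0 reads in both WT libraries, 2 and 0 in clone 1, and 0 and 7 in clone 2. The 9 Rhox3 entries had 0 reads in all libraries. Within the array, reads were thus counted on Rhox2 copies in every library labelled knockout, on Rhox4 copies in some, and on Rhox3 copies in none.

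Rhox10, a factor of male germ cells, had 2 and 2 reads in the WT libraries, 7 and 4 in clone 1, and 4 and 1 in clone 2. Its groups overlapped, since replicate 2 of clone 2 lay below WT. The ratio of scaled reads in the libraries labelled knockout to WT was 2.11 (95% counting interval 0.682 to 8.69), and the edgeR adjusted p was 0.698 in the fit of all genes with a read. Of the 4 Rhox entries with 10 or more reads, Rhox1, Rhox13 and Rhox2a had all 4 libraries labelled knockout above both WT libraries. The same held for 14.1% of the 5828 entries of 10 to 100 reads in these data. Rhox1, Rhox13 and Rhox2a reached 10 reads only through the libraries labelled knockout, which favours this order. Their number set beside that share therefore supports nothing beyond each gene's own values.

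**Figure D3:**
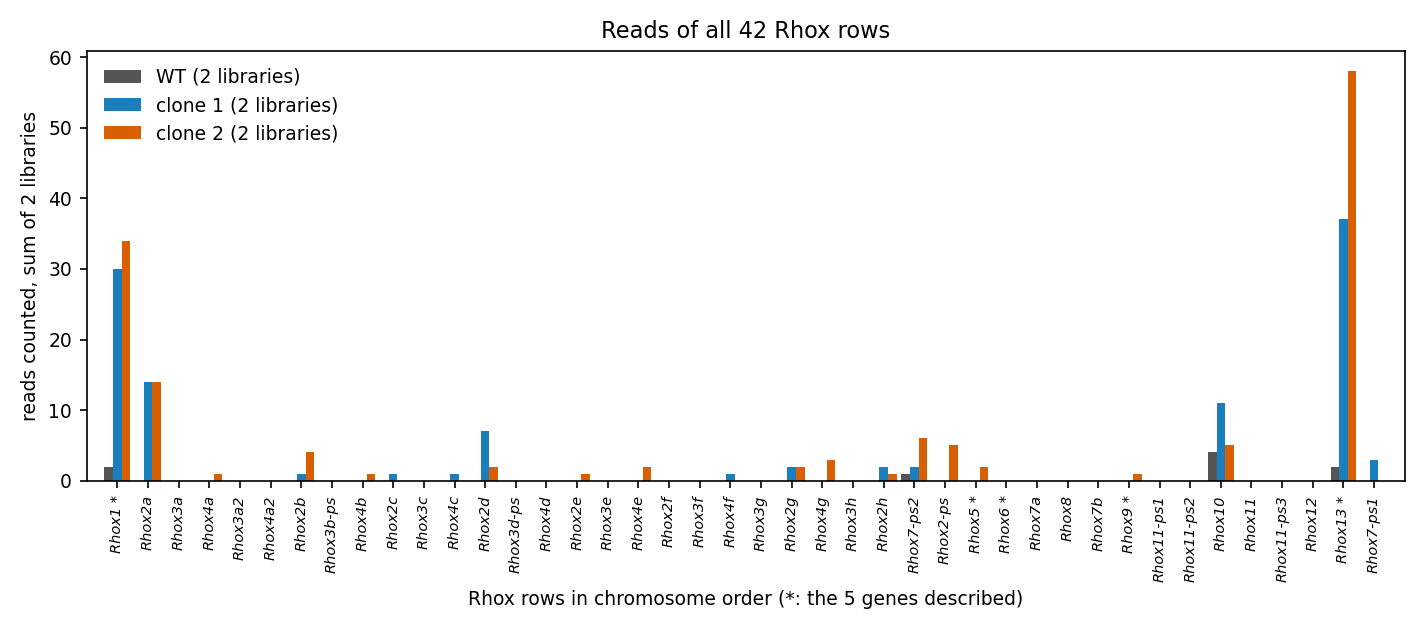
Reads summed over the 2 libraries of WT, clone 1 and clone 2 (vertical axis) for all 42 Rhox entries in chromosome order, with stars on the 5 genes described. The tallest bars are those of Rhox1, with 30 and 34 reads in the clones, and of Rhox13, with 37 and 58, and the entries between them have 14 reads or fewer per group.

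The Rhox entries span 1092 kb of the X chromosome (chrX:37213804-38306028). Within that span and 1 Mb to either side, 23 other genes were tested, of which edgeR called 1 higher with both clones as 1 genotype, 0 lower and 22 not. At an unadjusted p under 0.05, 1 was lower, and DESeq2 called 0 lower. Their median log2 fold change was -0.11, beside 0.00 over all genes tested. Zbtb33, which encodes the methyl-CpG-binding factor Kaiso, lies between Rhox13 and the last entry of the span, the pseudogene Rhox7-ps1. Its log2 fold change was 0.21 ± 0.18 (SE, edgeR adjusted p = 0.536). Ndufa1, a subunit of respiratory complex I before Rhox1, had -0.19 ± 0.20 (adjusted p = 0.622), and Rnf113a1 had -0.31 ± 0.17 (adjusted p = 0.306).

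In clone 1 alone edgeR called 2 of the 23 higher (Gm9 and Sept6) and 2 lower (Cul4b and Pgrmc1), and in clone 2 it called 1 higher (Gm9) and 2 lower (Slc25a5 and C330007P06Rik). The gene called for the genotype was Gm9, a predicted gene 2763 bases beyond the Rhox1 end of the cluster. It had 1 and 0 reads in the WT libraries, 6 and 10 in clone 1, and 20 and 14 in clone 2, with all libraries labelled knockout above WT. Its log2 fold change was 4.41 ± 1.05 (SE, edgeR adjusted p = 0.0388), close in size to that of Rhox1, and like Rhox1 it passed the filter only through the libraries labelled knockout. Among all 517 tested genes of the X chromosome, 40 were called higher and 11 lower, with a median log2 fold change of 0.02. The 40 include Rhox1, Rhox13 and Gm9 themselves. Over all genes tested, 4.25% were called higher and 2.11% lower.

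**Figure D4:**
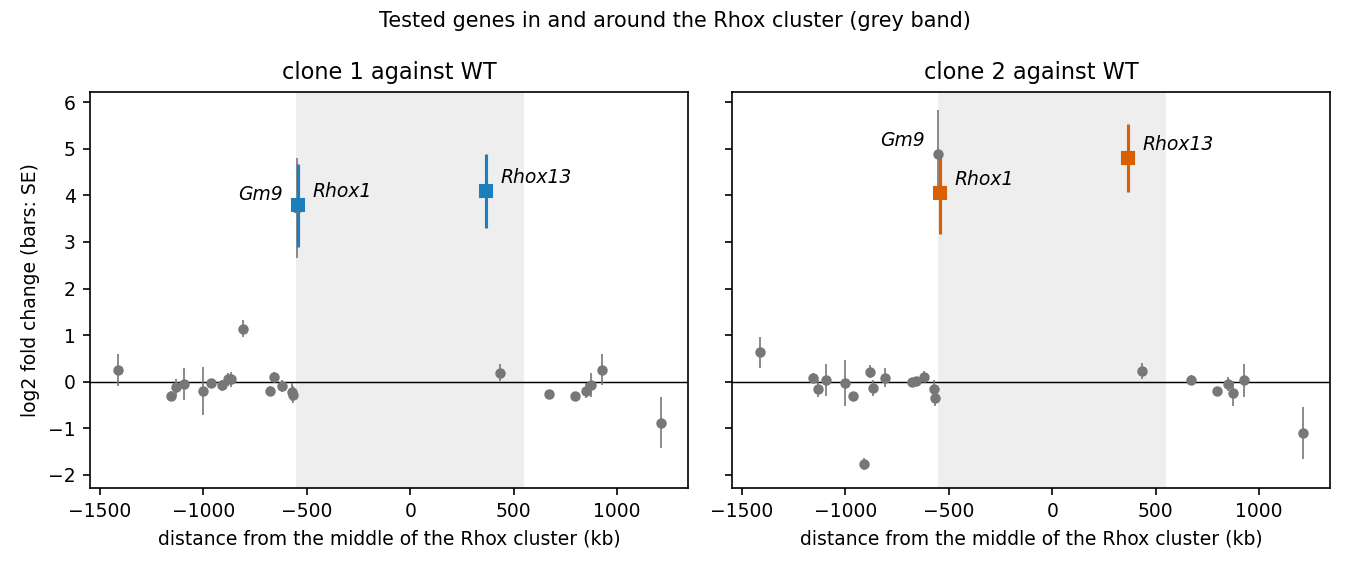
Log2 fold change (vertical axis, bars for SE) of clone 1 and of clone 2 against WT for tested genes by distance in kb from the middle of the Rhox cluster, which the grey band spans. Rhox1, Rhox13 and Gm9 lie between 3.73 and 4.88, while the other tested genes (grey) lie between -1.76 and 1.14.

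Germline genes other than Rhox were described from a list of 23, chosen with earlier results of these data known. Of these, 22 were tested. With both clones as 1 genotype, edgeR called 9 higher (4.25% over all genes tested), 0 lower (2.11%) and 13 not, with a median log2 fold change of 1.07. At an unadjusted p under 0.05, 0 were lower, and DESeq2 called 0 lower. In clone 1, 15 were higher and 0 lower, with a median of 1.57, where 12.4% of all genes tested were higher and 9.53% lower. In clone 2, 11 were higher and 1 (Piwil2) lower, with a median of 0.65, where those shares were 10.1% and 7.81%. Between the clones, 8 of the 22 were lower in clone 2 and 0 were higher, beside 7.71% and 6.62% of all genes tested.

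The 3 with the smallest p were Fkbp6, Dazl and Tuba3a. Fkbp6, a meiotic gene of the male germline, had 36 and 29 reads in the WT libraries, 520 and 538 in clone 1, and 522 and 618 in clone 2, a log2 fold change of 4.15 ± 0.17 (SE, edgeR adjusted p = 8.26e-06). Dazl, which binds RNA in germ cells, had 34 and 29 reads in the WT libraries, 342 and 290 in clone 1, and 234 and 283 in clone 2, a change of 3.26 ± 0.21 (adjusted p = 1.60e-04). Tuba3a, a testis tubulin, had 62 and 51 reads in the WT libraries, 1537 and 1844 in clone 1, and 910 and 1034 in clone 2, a change of 4.62 ± 0.32 (adjusted p = 2.06e-04). For all 3 the libraries labelled knockout lay above WT with no overlap, on far more reads than the Rhox genes had.

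The enzymes that set and keep DNA methylation were all measured, and 0 of 8 passed edgeR's test with both clones as 1 genotype (median log2 fold change 0.05). At an unadjusted p under 0.05, 1 of the 8 was lower, and DESeq2 called 0. Dnmt1, the maintenance enzyme, had 0.08 ± 0.08 (SE, edgeR adjusted p = 0.589), and Dnmt3b, a de novo enzyme, 0.02 ± 0.09 (adjusted p = 0.928). Dnmt3l, the cofactor of the de novo enzymes, was lower in each clone's own comparison, with -0.29 ± 0.08 in clone 1 (adjusted p = 0.0178) and -1.26 ± 0.08 in clone 2 (2.29e-08). Dnmt3a was higher in clone 1 by 1.01 ± 0.11 (adjusted p = 5.52e-06) and not called in clone 2, at 0.04 ± 0.11 (0.851). Between the clones, edgeR called 2 of the 8 lower in clone 2 and 1 higher. The lower ones were Dnmt3a, at -0.97 ± 0.11 (edgeR adjusted p = 1.63e-05), and Dnmt3l, at -0.97 ± 0.08 (9.64e-07). The higher one was Tet2, at 0.31 ± 0.09 (0.0299).

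Of 10 factors for H3K9 methylation and for the PRC1.6 complex, which are known to silence germline genes in stem cells, 0 were higher, 1 was lower and 9 were not called (median -0.03). At an unadjusted p under 0.05, 0 were higher and 3 lower, and DESeq2 called 0 higher and 1 lower. The lower one in edgeR was Max, the DNA-binding partner within PRC1.6, with 1405 and 1428 reads in the WT libraries, 988 and 992 in clone 1, and 957 and 1049 in clone 2. Its log2 fold change was -0.43 ± 0.08 (SE, edgeR adjusted p = 0.0145). In clone 1 alone edgeR called 4 of the 10 lower, Max, Trim28 (-0.38 ± 0.07, adjusted p = 0.00119), Pcgf6 (-0.44 ± 0.10, 0.00439) and Ehmt2 (-0.31 ± 0.09, 0.0189), and 1 higher, E2f6 (0.37 ± 0.11, 0.0282). DESeq2 called 4 lower and 0 higher in clone 1, so it did not call E2f6 there. In clone 2 alone edgeR called 1 lower, Max, and 0 higher (1 higher at an unadjusted p under 0.05, and 0 in DESeq2).

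Of 12 homeobox genes of early lineages outside the Rhox family 9 were tested, with 0 higher, 1 lower and 8 not called by edgeR (median 0.14). At an unadjusted p under 0.05, 0 were higher and 4 lower, and DESeq2 called 0 higher and 2 lower. Cdx2, a trophoblast homeobox gene, fell by 2.92 ± 0.40 on the log2 scale (edgeR adjusted p = 0.00355), from 374 and 302 reads in WT to 19 to 75 in the libraries labelled knockout. It was lower in each clone's own comparison too. In clone 1 edgeR also called Esx1, a placental homeobox gene, higher (1.26 ± 0.30, adjusted p = 0.00698) and Cdx1 lower (-0.53 ± 0.13, 0.00627). Esx1 was not called in clone 2 (-0.26 ± 0.35, edgeR adjusted p = 0.668), and its difference between the clones passed the test (-1.51 ± 0.32, 0.00359). DESeq2 called 1 of the list higher and 1 lower in clone 1, where edgeR called 2 lower. In clone 2 edgeR also called Obox6 lower (-1.57 ± 0.34, 0.00413).

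Cell types in which Rhox genes are known to be expressed were checked by marker lists. Trophoblast markers summed to 170 to 178 CPM in WT, 134 to 159 in clone 1 and 120 to 122 in clone 2, a sum carried mostly by Tead4 and Tfap2c. Of 7 tested, edgeR called 3 lower (Cdx2, Gata2 and Tead4) and 0 higher with both clones as 1 genotype (1 higher at an unadjusted p under 0.05, and 0 higher in DESeq2). In clone 1 alone the same 3 were lower and 3 were higher, Ascl2 (1.68 ± 0.19, edgeR adjusted p = 7.25e-06), Eomes (0.92 ± 0.17, 8.14e-04) and Krt7 (1.56 ± 0.47, 0.0244). In clone 2 alone 3 were lower and 0 higher, with 0 higher at an unadjusted p under 0.05 and in DESeq2. Elf5 was at 0 in WT and had 1 read in all.

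Sertoli cell markers summed to 17.5 to 19.4 CPM in WT, 24.7 to 29.0 in clone 1 and 45.2 to 47.5 in clone 2. Dmrt1, which germ cells also express, made up nearly all of this, at 17.4, 25.7 and 44.6 CPM on average. It was called higher in clone 1 (0.56 ± 0.13, edgeR adjusted p = 0.00506) and in clone 2 (1.36 ± 0.13, 9.79e-07). With both clones as 1 genotype it missed the threshold in edgeR (1.01 ± 0.26, 0.0519). DESeq2 called 1 of the 2 tested Sertoli markers higher for the genotype. Wt1 and Cldn11 were at 0 in WT and had at most 2 reads in any library.

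Primordial germ cell markers summed to 325 to 356 CPM in WT, 398 to 428 in clone 1 and 562 to 576 in clone 2, and most of the difference was Kit, at 212, 288 and 445 CPM on average. Of these 8 markers, edgeR called 2 higher with both clones as 1 genotype, Prdm1 at a log2 fold change of 2.70 ± 0.22 (SE, adjusted p = 2.78e-04) and Kit at 0.79 ± 0.20 (0.0493). It called 0 lower, while 1 was lower at an unadjusted p under 0.05 and 0 in DESeq2. In clone 1 alone Prdm1, Kit and Ddx4 were higher and Prdm14 was lower (-0.49 ± 0.11, edgeR adjusted p = 0.00320). In clone 2 alone Prdm1, Kit and Dppa3 were higher and 0 were lower (2 lower at an unadjusted p under 0.05, and 0 in DESeq2).

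Fibroblast markers summed to 4.08 to 6.34 CPM in WT, 10.3 to 13.5 in clone 1 and 3.63 to 7.03 in clone 2, with Twist2, Lum and Dcn at 0 in every library. Col1a2, a collagen chain, had 0 and 1 reads in the WT libraries, 22 and 15 in those of clone 1, and 11 and 18 in those of clone 2. It was called higher for the genotype (4.80 ± 0.86, edgeR adjusted p = 0.0120) and in each clone, with few reads in WT as for Rhox1. Of the 4 fibroblast markers tested, 3 were not called for the genotype. Thy1 was called higher in clone 1 (0.94 ± 0.30, edgeR adjusted p = 0.0311). In clone 2 Thy1 went the other way and was not called (-0.94 ± 0.35, 0.0769). Its difference between the clones passed the test, at -1.88 ± 0.33 (9.50e-04). DESeq2 called 1 of the markers higher in clone 1, where edgeR called 2.

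Primitive endoderm markers summed to 2.47 to 4.43 CPM in WT, 7.96 to 8.47 in clone 1 and 4.72 to 7.03 in clone 2. For the genotype edgeR called 0 of the 4 tested, with 2 higher at an unadjusted p under 0.05 and 0 called by DESeq2. Gata4 was called higher in clone 1 (1.43 ± 0.40, edgeR adjusted p = 0.0159) and Dab2 in clone 2 (2.73 ± 0.74, 0.0158). DESeq2 called 0 of these markers in either clone. Gata6 was lower in clone 2 without being called (-1.56 ± 0.73, edgeR adjusted p = 0.158), the 1 marker lower there at an unadjusted p under 0.05. The part of cells of any of these types in the Rhox reads was not tested.

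Likeness of profile was measured as the root mean square difference of log2 CPM, each gene centred on its mean over the 6 libraries, among 11818 genes with a mean of 1 CPM or more. The genes nearest to Rhox1 were Pak6, a p21-activated kinase (0.32), Dpysl3, a cytoskeletal protein of neurons (0.32), and Smarcd3, a subunit of BAF chromatin remodelling complexes (0.33). Those nearest to Rhox13 were Cdkn2a, the locus of cell cycle inhibitors (0.25), Sh2d4a, which encodes a protein with an SH2 domain (0.32), and Pramel6, of the PRAME family (0.36). Rhox1 and Rhox13 stood at 0.69 from each other. That is 1 fixed pair, while the distances above are the smallest among 11818 genes, so it cannot be ranked against them. Each of these distances rests on the same 6 libraries, in which both WT libraries are low, and log2 values with a prior count of 2 compress the folds of genes with as few reads as the Rhox genes.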

How the data were processed

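RNA depleted of ribosomal RNA was sequenced, and the deposited values are raw whole-number counts of reads per gene, 1 file per library, per the labels. Per the submitters' processing notes, tools were HTSeq 0.9.1, HISAT2 2.1.0 and DESeq2 1.18.1, and the build was mm10; roles are not stated. Not given in the sources used here are the annotation, the strand setting and the handling of reads with several alignments. Without the strand setting, overlapping or antisense genes cannot be separated. Among Rhox entries only exons of Rhox2c and Rhox3c overlap.

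The 5 HTSeq summary entries stayed out of library sizes and tests: ambiguous reads were 6.96% to 9.1% of a library, those of low alignment quality 6% to 7.3%, those outside any feature 4.14% to 5.35% and those not aligned 2.44% to 3.09%. Genes were filtered with filterByExpr on the 3 groups, scaled by TMM and tested in edgeR 4.0.16 (R 4.3.3) at 0.05. The genotype fit had 1 genotype term, and clone contrasts came from 1 fit of 3 groups over all 6 libraries. SE is the size of the log2 fold change divided by the root of F. Ratios of reads use exact conditional binomial intervals from scipy 1.17.1, and the floor is 3 counts. Alternatives were DESeq2 1.42.0, other size factors, no filter, a replicate block, leaving out each library, a mean over the clone contrasts, and a fit restricted to the libraries compared. Gene positions and exon lengths are those of GENCODE M21 (GRCm38, which mm10 also names), and promoters from RefSeq on GRCm38.p6.

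The members, gene lists and tests were chosen with earlier results of these data known. Named were the 5 genes, other Rhox entries with 10 or more counts, the 3 most similar profiles (predicted genes and pseudogenes left out), up to 4 nearest neighbours and up to 3 members with the smallest p of each list. Further members of these lists and neighbours, such as those called in 1 clone, and Dnmt1 and Dnmt3b were named after their values were seen. The 6 time-course samples of the series were not analysed here. Figures were drawn with matplotlib 3.10.9.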

Additional observations from a re-analysis of the deposited data

How the results depend on the processing

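Rhox13 kept its call in both clone comparisons under all 13 alternatives, with edgeR or DESeq2 adjusted p-values up to 0.0298 in clone 1 and 0.00873 in clone 2. In the genotype comparison the adjusted p ranged from 8.80e-04 to 0.232 for Rhox1 and from 1.50e-05 to 0.128 for Rhox13, and neither gene was lower than WT in any alternative. The number of the 2 genes called there was 0 to 2 when libraries were left out in turn, and 1 to 2 in each clone comparison. Between clones it stayed at 0, and the Rhox1 difference turned to -0.14 without clone 1 replicate 1 (edgeR adjusted p = 0.928) and ranged up to 0.81 with other libraries left out.

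Over all genes, the 951 genotype calls became 1752 without the filter, 3226 with the mean of both clone contrasts, and 79 to 948 with 1 library left out. The 3280 calls of clone 1 became 1576 to 4310, the 2674 of clone 2 became 1165 to 4191 (4065 with only the 4 libraries compared), and the 2141 between clones became 974 to 3155. With library totals as the only scaling, calls split into 2493 higher and 833 lower in clone 1 (1856 and 1424 with TMM) and 646 and 1501 between clones (989 and 1152). Same-numbered libraries deviated together at correlations of 0.05, -0.01 and 0.13 over 14946 genes, and not every pair was over 0.1, so they were not treated as paired. A shared batch was not tested. The replicate block gave 646 genotype calls, with 1 of the 2 Rhox genes (Rhox1 at an edgeR adjusted p of 0.0521), 4410 calls in clone 1, 3685 in clone 2 and 3007 between clones, with both Rhox genes called in each clone and 0 between clones. The causes of these shifts were not tested. Depth limits Rhox5, Rhox6 and Rhox9, where 3 reads in a library correspond to 0.221 to 0.253 CPM.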
